A study of Saccharomyces cerevisiae with 56 samples.

Results

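The data described here are the amino acid starvation libraries of 4 budding yeast (Saccharomyces cerevisiae) strains that keep the ribi repressors Dot6, Tod6 and Stb3. They were chosen by their labels (strain, condition and pretreatment with the translation inhibitor cycloheximide, CHX), and they make up 16 of the 56 libraries of the series. Each strain gave 1 replete sample and 1 sample starved for 20 min, and each sample gave 1 ribosome footprint library and 1 mRNA library. All 4 strains were MATa and carried his3-Δ1, leu2-Δ0, met15-Δ0 and ura3-Δ0. BY4741 had no further change. In yJW1861 and yJW1862 the NOP2 gene was replaced by its Kluyveromyces lactis counterpart, and NOP2 was put back at the yhrcdelta14 locus under the CCW12 promoter (yJW1861) or under the NOP2 promoter (yJW1862). In yJW1863 the same locus carried EGFP between ADH1 untranslated regions, driven by the NOP2 promoter. According to the study's methods, cultures grew in synthetic medium with glucose, amino acids, uracil and adenine. A part of each culture was spun down and resuspended without these supplements, so that uracil and adenine were withdrawn along with the amino acids. The replete part was not spun before CHX was added, so starvation and this handling cannot be told apart. All 8 samples received 100 µg/ml CHX for 2 min and were then collected by centrifugation with the drug still present. A replete and a starved BY4741 sample collected without CHX, by filtration and freezing, gave 4 further libraries that are set beside them. In that comparison CHX cannot be told apart from its solvent or from the way of collecting cells. Strain also differs there, since only BY4741 was collected both ways.

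Cells that lack an amino acid accumulate uncharged tRNA, which activates the kinase Gcn2. Gcn2 phosphorylates eIF2α, which lowers initiation in general but lets ribosomes reach the GCN4 coding sequence past the short upstream reading frames of its leader. Gcn4 then activates genes of amino acid synthesis, while lower activity of the TORC1 kinase releases genes for the use of poor nitrogen sources, autophagy and stress resistance and represses those that make ribosomes. A footprint is the piece of mRNA covered by a ribosome, and translation efficiency (TE) here is the level of footprints over the level of mRNA of a gene. Ribosomal protein (RP) genes and the genes that the deposited table marks as ribi (ribosome biogenesis) entered the fits but are not described further.

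With CHX the footprint libraries held 3812428 to 18632622 reads on genes and the mRNA libraries 9573565 to 14748811. Without CHX they held 3631611 to 5730358 and 10078976 to 11393808 reads. A gene was tested when its mean over the 8 samples was at least 7 on the log2 scale in mRNA reads and at least 1 in footprint reads, which left 5064 genes, of which 4786 lay outside the 162 ribi and 116 RP genes tested. Among these 4786, 163 in replete and 315 in starved cells had under 32 footprints in at least 1 library. The deleted markers URA3 and LEU2 had 0 to 1 mRNA reads in every library. MET15, deleted in all 4 strains, had 148 and 255 footprints and 11 and 7 mRNA reads in the replete and starved BY4741 samples with CHX and 0 in the other strains, and LEU2 had 28 and 17 footprints there and 0 in the other strains. The source of these BY4741 reads and their part in its footprint values were not tested. HIS3, deleted in part, had 508 to 4298 mRNA reads. Replete and starved samples of a strain were parts of 1 culture and were tested as pairs in edgeR, with p-values adjusted by Benjamini-Hochberg over all 5064 genes. The spread is that among 4 strains grown as 1 culture each. Per the ratio of counts to RPKM, most genes had 108 bases left out of the counted region in the BY4741 libraries, with and without CHX, and 33 in those of the other strains. Starved and replete samples of a strain were counted over the same region, whereas levels of BY4741 and of the other strains were not. Levels are given as RPKM (reads per kilobase of unmasked coding sequence, scaled to the depth of the library) rescaled by edgeR's TMM factors, always in the order BY4741, yJW1861, yJW1862 and yJW1863, and changes as log2 of starved over replete. A ± after a log2 change is the SE of the fit, and a ± after a percentage is the SD over the 4 strains. The largest changes are named among genes with the same sign in all strains and at least 32 reads in every library of the higher group. Values without CHX come from 1 pair and are given beside these as a description. The TMM factors of that pair were computed over the samples with and without CHX together, and those of the other samples over the samples with CHX alone. Levels with and without CHX are therefore not on exactly the same scale. A difference between the responses is named as called where it passed its own test, in which the spread of the pair without CHX was borrowed from the other samples. Of the 24 called differences described for single genes, 6 were called without the strain block, and 17 without yJW1862, 20 without yJW1861, 21 without yJW1863 and 24 without BY4741. Counts of 1 or 2 list members often moved when a strain was left out (35 of 70 by over 1.5 times, against 34 of 212 counts of 3 or more).

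Starvation changed the mRNA level of most genes outside the ribi and RP groups. Of 4786 genes, 2125 rose and 1663 fell in mRNA at an adjusted p under 0.05 (44.4% and 34.7%), 2013 rose and 1564 fell in footprints (42.1% and 32.7%), and 796 rose and 1099 fell in TE (16.6% and 23.0%). In either direction these were 79.1% of genes in mRNA, 74.7% in footprints and 39.6% in TE. The median change of these genes was 0.07 in mRNA, 0.12 in footprints and -0.02 in TE on the log2 scale. A change of at least 4-fold was reached by 142 genes that rose and 94 that fell in mRNA, by 241 and 241 in footprints, and by 34 and 36 in TE. Footprints therefore spread wider than mRNA at both ends. Both measures rose for 1699 genes and fell for 1325, whereas 59 genes had more mRNA with fewer footprints and 29 the reverse. Of the genes whose mRNA fell, 677 (40.7%) also fell in TE and 103 (6.2%) rose in TE. Of those whose mRNA rose, 519 (24.4%) rose in TE and 270 (12.7%) fell. The sign was the same in all 4 strains for 3946 of all 4786 genes in mRNA and 2815 in TE, and for 3720 of the 3788 genes called in mRNA and 1845 of the 1895 called in TE, and the median SD of a gene's change over strains was 0.12 in mRNA and 0.21 in TE.

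The scale of footprints and TE rests on the normalization. With library sizes in place of TMM factors, the median of all genes moved by 0.40 in footprints and 0.37 in TE, the calls outside ribi and RP became 2817 up and 938 down in footprints and 2334 up and 408 down in TE, and the mRNA calls (2300 up and 1486 down) moved less. Levels are shares of a library, so a change in the total RNA or total translation of a cell cannot be seen in them. Changes below are relative to the TMM scale, and a list whose direction turned with library sizes is named as such. TE calls outside ribi and RP numbered 1246 without yJW1863 and 1865 without BY4741.

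The largest shift of reads was toward amino acid synthesis. Its 91 listed genes took 3.55% ± 0.20 (SD, n = 4) of mRNA reads in replete and 17.3% ± 1.65 in starved cells, and 4.40% ± 0.17 and 17.7% ± 1.35 of footprints, so that more than 1 read in 6 came from these genes after 20 min. The 20 genes of sulfate assimilation and methionine synthesis alone went from 1.08% ± 0.07 to 8.14% ± 1.11 of mRNA reads and from 1.57% ± 0.06 to 8.21% ± 1.03 of footprints. In exchange, the share of glycolysis and fermentation genes went from 8.98% ± 0.74 to 3.71% ± 0.14 of mRNA reads and from 16.1% ± 3.47 to 6.06% ± 0.46 of footprints, where BY4741 at 21.3% stood above the other replete samples at 14.1% to 14.5%. Translation factors and aminoacyl-tRNA synthetases went from 4.90% ± 0.29 to 2.05% ± 0.04 of mRNA reads and from 5.03% ± 0.27 to 1.61% ± 0.13 of footprints. Stress, trehalose and glycogen genes took 0.794% ± 0.09 and then 1.83% ± 0.22 of mRNA reads, and 0.939% ± 0.11 and then 3.12% ± 0.31 of footprints. In each of these groups the 4 starved samples lay outside the range of the 4 replete samples in both library types. Respiratory chain genes overlapped in mRNA (0.640% ± 0.06 and 0.616% ± 0.02) but not in footprints (0.826% ± 0.05 and 1.15% ± 0.03).

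**Figure D1:**
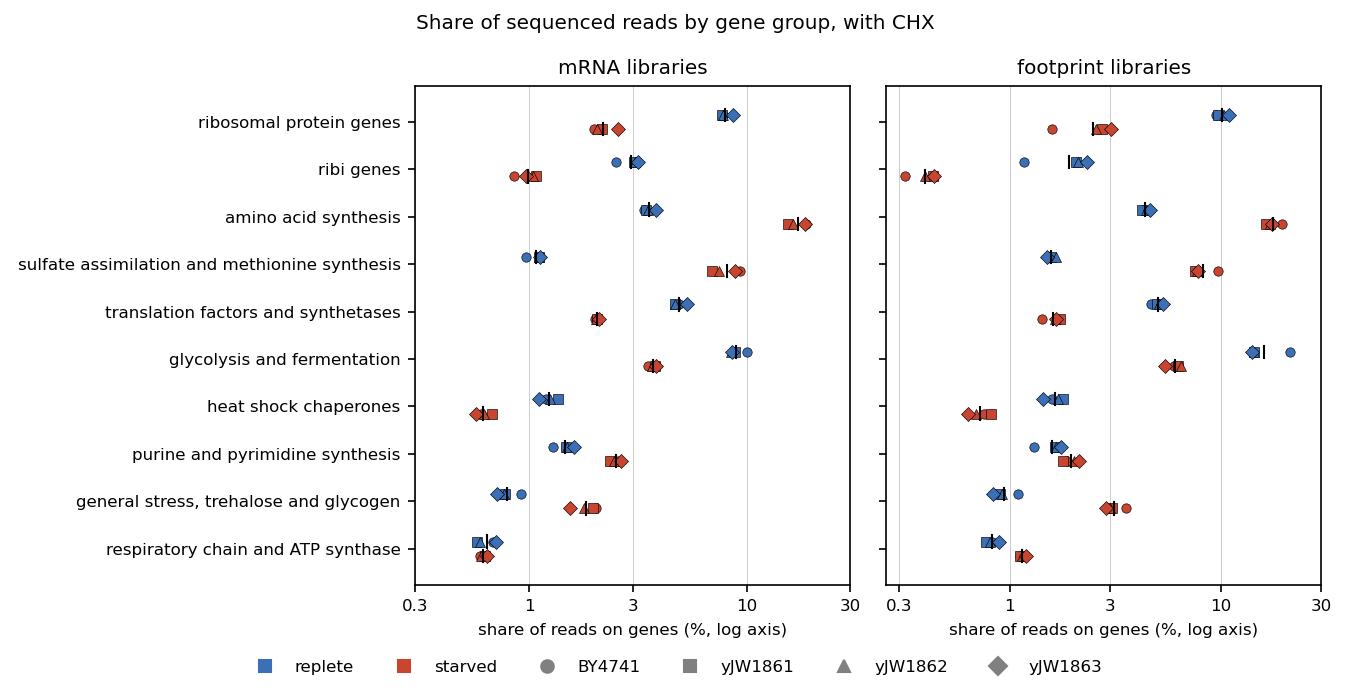
Share of the reads on genes (percent, log axis) taken by 10 gene groups in the mRNA (left) and footprint (right) libraries with CHX. Each symbol is 1 strain, blue replete and red starved, and the black bar is the mean of 4; amino acid synthesis went from 3.55% to 17.3% of mRNA reads, and respiratory chain genes overlap in mRNA but not in footprints.

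Genes of amino acid synthesis rose in most pathways. All 10 genes of the arginine pathway rose in mRNA (median 3.05) and in footprints (median 2.98), and 2 rose and 2 fell in TE (1 and 4 without BY4741, 1 and 0 without yJW1861 or yJW1862, and 2 and 0 with library sizes). In TE, 16.6% of all genes outside ribi and RP rose and 23.0% fell. ARG3, which encodes ornithine carbamoyltransferase, had 40.0, 41.2, 40.3 and 64.5 RPKM of mRNA in replete and 2067, 1312, 1407 and 1582 in starved cells, and 39.1, 52.3, 57.4 and 99.2 and then 1278, 1211, 1372 and 1435 RPKM of footprints. Every starved value was at least an order of magnitude above every replete value. Its mRNA rose by 5.10 (SE 0.16, adjusted p = 4.1e-09), and ARG1, CPA1 and ARG4, further enzymes of the pathway and its carbamoyl phosphate branch, rose by 3.80, 3.60 and 3.08. ARG8 was the member with the largest rise in TE, at 1.31 (SE 0.15, adjusted p = 3.6e-05), against 0.47 in the pair without CHX.

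LEU1, which encodes isopropylmalate isomerase of leucine synthesis and is intact in these leu2 strains, had 324, 293, 295 and 363 RPKM of mRNA in replete and 7324, 7086, 7526 and 7377 in starved cells. The starved strains lay within a narrow band, and the rise was 4.53 (SE 0.10, adjusted p = 1.6e-09). Of 10 branched-chain genes tested, 9 rose and 0 fell in mRNA (median 1.67), led by LEU1 and by BAT1 at 2.87, a mitochondrial aminotransferase, and 0 rose and 5 fell in TE (3 fell without BY4741, yJW1861 or yJW1863). Of 7 histidine genes, 6 rose and 1 fell in mRNA (median 1.73), with HIS4 at 2.24.

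Other branches were mixed. Of 8 lysine genes, 6 rose and 1 fell in mRNA (median 0.66) and 1 rose and 5 fell in TE (median -0.53, against 0.10 without CHX; 0 rose without yJW1861, yJW1862 or yJW1863, and 3 fell with library sizes). LYS1, saccharopine dehydrogenase at the end of the pathway, rose by 2.81, whereas LYS4, homoaconitase in its middle, fell. LYS4 had 99.0, 96.0, 96.8 and 119 RPKM of mRNA in replete and 91.2, 54.0, 59.2 and 91.5 in starved cells, and 99.7, 61.7, 71.5 and 103 and then 44.6, 12.7, 17.8 and 37.7 RPKM of footprints. The starved mRNA values reached down to 54.0 in yJW1861 but stayed near the replete range in BY4741 and yJW1863, whereas all starved footprint values lay below all replete ones. The TE of LYS4 changed by -1.23 (SE 0.21, adjusted p = 7.1e-04), against 0.15 without CHX. Among 14 aromatic genes, 11 rose and 3 fell in mRNA (median 0.56), but 5 rose and 6 fell in footprints (8 and 3 with library sizes) and 0 rose and 9 fell in TE (1 and 3 with library sizes, 5 down without yJW1863). The largest mover was ARO9, an aminotransferase that also breaks down aromatic amino acids, with a change of -2.79 in mRNA. ARO10, a decarboxylase of the same breakdown route, changed by -3.86 in mRNA, and by -2.54 without CHX, and the difference was called (-1.33 (SE 0.23, adjusted p = 0.011)). Of 13 genes of serine, glycine, threonine and aspartate synthesis, 9 rose and 4 fell in mRNA, and 0 rose and 10 fell in TE (4 fell without yJW1863, 6 without yJW1861 or yJW1862, and 2 with library sizes). SER33 rose by 3.54 and HOM3, aspartate kinase, by 2.71. SHM1, the mitochondrial serine hydroxymethyltransferase, changed by -2.59 in footprints and -1.47 in TE, and by -1.31 in TE without CHX. Of 7 proline, glutamate and glutamine genes 4 rose and 3 fell, with GDH3, a glutamate dehydrogenase, at 2.57 and PRO1, the first enzyme of proline synthesis, at -1.42.

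The regulator itself moved mainly in footprints. GCN4 mRNA was 1832, 733, 767 and 1402 RPKM in replete and 2236, 1179, 1280.3 and 1802 in starved cells, so that the groups overlapped across strains although each strain rose. Its footprints were 61.9, 53.1, 56.3 and 68.8 RPKM and then 2016, 973, 1119 and 1321, with no overlap and an increase of more than an order of magnitude in each strain. The mRNA rose by 0.52 (SE 0.09, adjusted p = 4.5e-04), the footprints by 4.45 (SE 0.17, adjusted p = 8.9e-09) and TE by 3.90 (SE 0.20, adjusted p = 7.1e-08), the last against 3.73 without CHX. Of the 29 nutrient transcription factors and sensors tested, 22 rose and 4 fell in mRNA (median 0.51), 21 rose and 4 fell in footprints, and 6 rose and 5 fell in TE (17 and 0 with library sizes; 1 fell without yJW1862, and 3 without yJW1861 or yJW1863). These TE counts stand beside 16.6% rising and 23.0% falling among all genes outside ribi and RP. The Gcn2 activators GCN1 and GCN20 fell, at -1.04 and -0.41, and GCN2 had a change of -0.08 that was not called. Among pathway activators, LYS14 (lysine), ARG80 (arginine), LEU3 (leucine) and MET4 (sulfur) changed by 0.99, 0.66, 0.34 and 1.06 in mRNA, all called. HAP4, a subunit of the activator of respiratory genes, changed by -2.03 ± 0.18.

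The largest rises belonged to sulfur metabolism. Of the 20 genes listed for sulfate assimilation and methionine synthesis, 19 were tested (MET15, deleted, was not), and 19 of 19 rose in mRNA (median 4.44) and in footprints (median 4.11). In TE 0 rose and 4 fell, where 16.6% and 23.0% of all genes outside ribi and RP did. The falls in TE were 1 without yJW1863 and 2 without yJW1862, and with library sizes 2 rose and 2 fell. SUL1, a high-affinity sulfate permease, had 2.09, 3.73, 3.82 and 2.63 RPKM of mRNA in replete and 973, 606, 729 and 853 in starved cells, and 2.09, 1.76, 3.27 and 0.891 and then 696, 508, 577 and 513 RPKM of footprints. All 4 replete samples were under 4 RPKM in both measures, and no starved sample was near them. Its rise of 8.00 (SE 0.24, adjusted p = 2.7e-09) was the largest in mRNA, followed by SEO1, a putative permease, at 6.68. MET28, a subunit of the Met4 activator complex, had 13.9, 26.2, 22.3 and 21.1 and then 1487, 1038, 1214 and 1289 RPKM of mRNA and rose by 5.90 (SE 0.18, adjusted p = 3.0e-09). STR3, MET1, SUL2 and MET16, for cystathionine lyase, siroheme synthesis, sulfate uptake and PAPS reductase, rose by 5.66, 5.38, 5.34 and 5.33.

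MET6, the methionine synthase and the most abundant mRNA of the list, had 2252, 2304, 2295 and 2676 RPKM of mRNA in replete and 14818, 9820.2, 10088 and 13567 in starved cells. Its footprints were 5278, 3761, 4171 and 3818 and then 16356, 10664, 10211 and 9509.8 RPKM, highest in BY4741. The groups did not overlap in either measure, and mRNA rose more (2.32 ± 0.13) than footprints (1.44 ± 0.18), with TE at -0.92 (SE 0.21, adjusted p = 0.004) and at -0.76 without CHX. Among 6 regulators, MET32, MET30 and MET4 rose along with MET28, by 4.89, 2.03 and 1.06 in mRNA; MET31 fell in mRNA (-0.30) and rose in TE (0.60), and CBF1 was not called in mRNA, footprints or TE. Outside the list, the sulfur-related transporters and enzymes YCT1 (cysteine uptake), BDS1 (an alkylsulfatase) and GTO1 (a glutathione transferase) rose in footprints by 5.84, 5.82 and 5.90, and in TE by 1.49, 1.96 and 2.60. Without CHX the footprints of YCT1, BDS1 and GTO1 changed by 5.00, 5.53 and 6.42, and the TE of GTO1 by 2.79.

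Genes for poor nitrogen sources rose as well. Of 18 tested nitrogen catabolite repressed genes (21 listed), 16 rose and 2 fell in mRNA (median 0.91), 13 rose and 1 fell in footprints (median 1.38), and 9 rose and 2 fell in TE (median 0.37, against 0.14 without CHX; 6 rose without yJW1861, and 0 fell without yJW1863 or with library sizes and 1 without yJW1862). MEP2, the high-affinity ammonium permease, had 22.3, 15.0, 13.5 and 18.7 RPKM of mRNA in replete and 470.4, 583, 533 and 348 in starved cells and rose by 4.78 (SE 0.19, adjusted p = 1.3e-08), and its footprints rose by 5.91 ± 0.28. yJW1863 was lowest among the starved samples. GAP1, the general amino acid permease, had 74.0, 45.6, 47.3 and 55.4 and then 719, 1089, 911 and 618 RPKM of mRNA, a rise of 3.90 (SE 0.21, adjusted p = 1.1e-07).

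DAL5, an allantoate permease, had 24.2, 16.8, 16.7 and 18.4 RPKM of mRNA in replete and 37.9, 38.9, 40.7 and 38.2 in starved cells, a change of 1.04 ± 0.10. Its footprints numbered 0 to 6 reads per replete library and 64 to 242 per starved library, so that the fitted TE change of 5.09 (SE 0.40, adjusted p = 1.7e-06), the largest rise, depends on very few replete reads. Without CHX its TE changed by 4.03, and the difference was not called (adjusted p = 0.950 in edgeR). Other DAL genes, which encode enzymes of allantoin breakdown, also rose in TE, at 2.65 for DAL7, 1.86 for DAL2 and 1.19 for DAL3, against 1.33, 0.56 and -0.10 without CHX. NIT1, annotated as a nitrilase, rose by 7.01 in footprints and 2.94 in TE, against 5.35 and 0.99 without CHX. The GATA factors that control these genes rose: DAL80 by 4.94 ± 0.16, GAT1 by 3.15 ± 0.07 and GLN3 by 1.51 ± 0.08 in mRNA.

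Amino acid permeases split. Of 17 tested (19 listed), 11 rose and 5 fell in mRNA and in footprints. MUP3 and MMP1, for methionine and S-methylmethionine uptake, rose by 4.81 and 4.44, and AGP3 by 4.07. TAT1, a permease for tyrosine, tryptophan and other amino acids, had 309, 203, 213 and 304 RPKM of mRNA in replete and only 16.2, 10.1, 8.59 and 13.5 in starved cells. All 4 strains fell, with no overlap. The change was -4.42 (SE 0.08, adjusted p = 1.4e-09) in mRNA and -4.87 ± 0.15 in footprints. VHR2, INA1 and KAP123 (the importin of ribosomal proteins) followed among the largest mRNA falls, at -3.79, -3.50 and -3.29. In the TORC1 list, 10 of 17 rose and 3 fell, with the kinase NPR1 at 1.19.

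**Figure D2:**
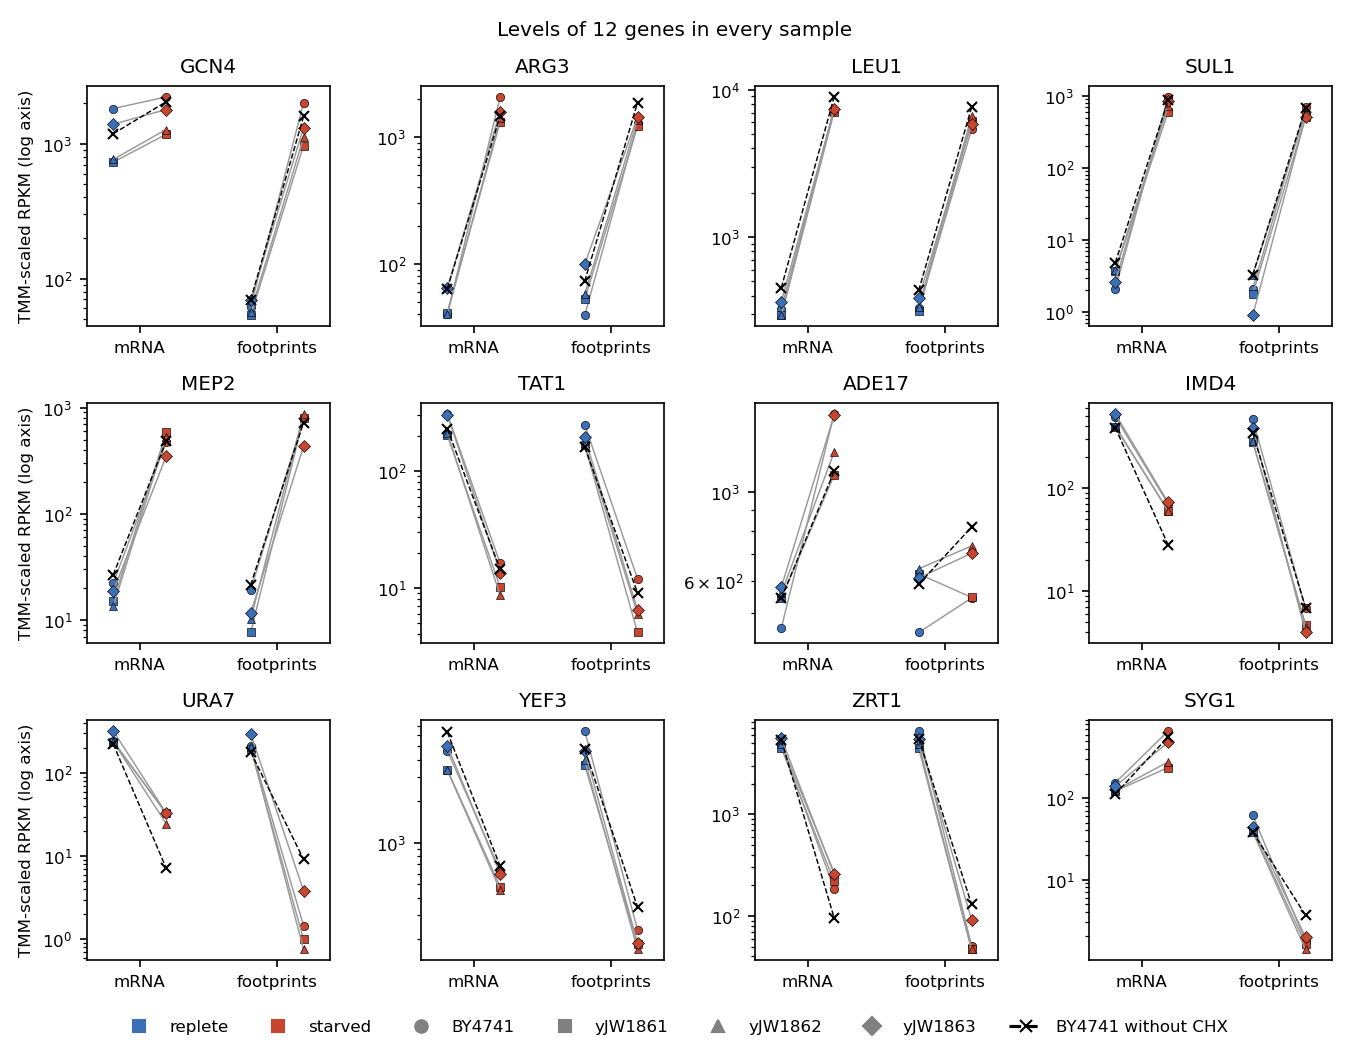
Level of 12 genes (TMM-scaled RPKM, log axis, 1 panel a gene) in mRNA and footprints. Blue symbols are replete and red starved samples of the 4 strains, and lines join the samples of a culture. Black crosses are the BY4741 pair without CHX, scaled with another set of TMM factors. With CHX, GCN4 overlaps in mRNA and separates in footprints, and SYG1 rises in mRNA while its footprints fall below 2 RPKM.

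Genes of the translation machinery fell. All 22 cytosolic aminoacyl-tRNA synthetases fell in mRNA (median -0.91) and footprints (median -1.52), and 20 of 22 fell in TE with 0 rising (median -0.73, against -0.22 without CHX; 15 fell without yJW1862 and 13 with library sizes). KRS1, the lysyl-tRNA synthetase, had 904, 761, 772 and 944 RPKM of mRNA in replete and 879, 522, 623 and 772 in starved cells, so that the groups overlapped across strains although each strain fell. Its footprints, 951, 775, 801 and 920.2 and then 355, 242, 271 and 358 RPKM, did not overlap. TE changed by -1.24 (SE 0.13, adjusted p = 2.5e-05), against -0.52 without CHX. THS1 and GLN4, for threonine and glutamine, fell most in mRNA, with changes of -1.66 and -1.56.

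All 22 initiation factors tested (27 listed) fell in mRNA (median -1.21) and in footprints (median -1.81), and 16 fell in TE (11 fell and 2 rose with library sizes). Their median TE change was -0.57 with CHX and -0.03 without. PAB1, the poly(A)-binding protein, changed by -3.08 in footprints and -1.55 in TE, and by -1.25 in TE without CHX. Of 6 elongation and termination factors tested (13 listed, among them near-identical pairs with too few unmasked reads), 5 fell in mRNA and 6 in footprints and TE. YEF3, the fungal elongation factor 3, had 4647, 3379.7, 3344 and 5045 RPKM of mRNA in replete and 630.1, 482, 455 and 597 in starved cells, and 6442, 3661, 3977 and 4647 and then 234, 186, 169 and 188 RPKM of footprints. Its mRNA changed by -2.91 (SE 0.09, adjusted p = 3.4e-09) and its footprints by -4.57 ± 0.18, with no overlap between the groups. The ribosome-bound chaperones SSB1 and SSB2, which are near-identical and were counted only at unmasked positions, changed by -4.90 and -4.51 in footprints.

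Subunits of RNA polymerases I and III, which make rRNA and tRNA, fell further. Of 21, 1 rose and 19 fell in mRNA (median -1.53) and in footprints (median -2.57), and 1 rose and 16 fell in TE (14 with library sizes). The median TE change was -1.06 with CHX and -0.22 without. RPA190, the largest subunit of polymerase I, had 238, 244, 244 and 314 RPKM of mRNA in replete and 26.2, 32.4, 29.8 and 26.3 in starved cells, and 137, 147, 147 and 188 and then 4.69, 2.81, 2.13 and 4.51 RPKM of footprints. The groups were far apart in both measures. TE changed by -2.37 (SE 0.23, adjusted p = 8.3e-06) with CHX and by -0.30 without, a difference of -2.05 (SE 0.47, adjusted p = 0.041). Called with all 4 strains, it was not called without the strain block (adjusted p = 0.27 in edgeR) or without any 1 of yJW1861, yJW1862 and yJW1863 (0.054 to 0.12). By contrast, of 7 polymerase II subunits 0 rose and 3 fell in mRNA, with RPO21 at -0.64. Of 33 tRNA modification genes tested (34 listed), 1 rose and 30 fell in mRNA, 0 rose and 30 fell in footprints, and 0 rose and 21 fell in TE. Their median TE change was -0.86 with CHX and 0.02 without. TRM11, a tRNA methyltransferase subunit, changed by -2.81 in mRNA and -4.88 in footprints. Several of the largest footprint and TE falls belong to genes that act in ribosome assembly without being marked as ribi: DBP2, HCA4, MTR4, ARX1, RRB1, NOG2 and ESF1 changed by -3.10, -3.06, -2.61, -2.93, -3.08, -2.99 and -3.18 in TE. Without CHX the values were 0.33, -0.05, -0.10, -0.54, 0.71, -0.45 and -2.18, and the TE difference was called for each of them except ESF1 (adjusted p = 0.202 in edgeR).

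Genes of nucleotide synthesis fell in TE. Of 24 purine and one-carbon genes tested (25 listed), 0 rose and 23 fell in TE (18 fell and 1 rose with library sizes), with a median of -1.11 with CHX and -0.23 without. Their mRNA was divided, 10 up and 9 down (median 0.05), and their footprints were 7 up and 14 down (median -0.57). ADE17, which closes the purine ring to form IMP, had 457, 542, 558 and 578 RPKM of mRNA in replete and 1561, 1099, 1254 and 1549.6 in starved cells, a rise of 1.35 (SE 0.12, adjusted p = 3.4e-06) with no overlap. Its footprints, 446, 624, 642 and 609.6 and then 543, 545, 732 and 703 RPKM, overlapped and changed by 0.12 (SE 0.12, adjusted p = 0.386). The route from IMP to GMP fell instead. IMD4, an IMP dehydrogenase, had 494, 392, 399.6 and 526 and then 70.1, 60.2, 60.2 and 72.6 RPKM of mRNA, and 464, 282, 286 and 382 and then 6.80, 4.71, 4.53 and 3.97 RPKM of footprints (24 to 41 reads per starved library). Its footprints changed by -6.15 (SE 0.15, adjusted p = 1.9e-09) and its mRNA by -2.78 ± 0.05, and its TE by -3.41 (SE 0.15, adjusted p = 4.5e-08). IMD3, a close relative of IMD4, changed by -3.47 in footprints, and non-unique positions were masked from the counts of both. GUA1, GMP synthase, and AAH1, adenine deaminase, changed by -4.61 and -5.44 in footprints and by -2.15 and -2.71 in TE, against -0.21 and 0.19 in TE without CHX, and both TE differences were called.

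Of 12 pyrimidine genes tested (13 listed, URA3 being deleted), 3 rose and 9 fell in mRNA, 1 rose and 9 fell in footprints, and 1 rose and 10 fell in TE (median -0.98 with CHX and -0.19 without). URA7, the major CTP synthase, had 242, 238, 239 and 322 RPKM of mRNA in replete and 33.0, 32.7, 24.7 and 33.1 in starved cells. Its footprints were 212, 198, 209 and 297 and then 1.46, 0.997, 0.755 and 3.85 RPKM, or 7 to 53 reads per starved library, the largest fall in footprints, at -7.02 (SE 0.24, adjusted p = 5.4e-09). TE changed by -3.95 (SE 0.26, adjusted p = 5.2e-07) with CHX and by 0.66 without, a difference of -4.57 (SE 0.57, adjusted p = 0.001). URA10, a minor orotate phosphoribosyltransferase, was the member that rose in TE (1.35, and -0.34 without CHX), and the uridine permease FUI1 had -1.66 with CHX and -0.10 without, a difference of -1.53 (SE 0.24, adjusted p = 0.005).

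Genes of glycolysis and fermentation fell. Of 20 glycolysis and fermentation genes, 2 rose and 17 fell in mRNA (median -1.16) and in footprints (median -1.61), and 0 rose and 10 fell in TE (3 without yJW1863, 6 without yJW1862, and 4 with library sizes). TDH2, a glyceraldehyde-3-phosphate dehydrogenase whose near-identical copies leave a short countable stretch, had 9133, 7978, 7674 and 4263 RPKM of mRNA in replete and 1244, 1364, 1336 and 994 in starved cells, and 19645, 10466, 9991 and 8919 and then 779, 848, 909 and 927 RPKM of footprints. BY4741 was highest in replete footprints and yJW1863 lowest in replete mRNA, and the groups did not overlap in either measure. Its mRNA changed by -2.51 ± 0.11 and its footprints by -3.73 ± 0.22; HXK2 (hexokinase), PDC1 (pyruvate decarboxylase) and ENO2 (enolase) changed by -2.58, -2.20 and -2.01 in mRNA. The glucose transporters HXT3 and HXT1 changed by -2.09 and -1.35. Of 7 gluconeogenesis and glyoxylate cycle genes tested (12 listed), 5 rose and 1 fell in mRNA (median 0.31) and in footprints (median 1.76), and 5 rose in TE (median 0.78 with CHX, 0.29 without). PCK1, the first committed enzyme of gluconeogenesis, changed by 1.10 in mRNA and 1.67 in TE, and by 0.01 in TE without CHX.

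Storage carbohydrate and stress genes rose together. All 18 trehalose and glycogen genes tested rose in mRNA (median 0.99, against 0.47 in the pair without CHX), led by GDB1, the glycogen debranching enzyme, at 2.02 (0.81 without CHX, a called difference). All 16 general stress genes tested (19 listed) rose in mRNA (median 1.60, against 0.86 without CHX), and 15 in footprints (median 2.09). HSP12, a small membrane stress protein, had 2024, 1444, 1652 and 1920.2 RPKM of mRNA in replete and 11229, 9866, 8460.4 and 6649.6 in starved cells. Without CHX its mRNA was 4449.6 in the replete sample and 12558 in the starved one. The replete value was above all 4 replete samples with CHX, which were scaled with another set of TMM factors. It rose by 2.35 (SE 0.14, adjusted p = 2.4e-07) with CHX and 1.50 without. DDR2 rose by 2.84 with CHX and 1.63 without.

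Heat shock chaperones went the other way. Of 25, 3 rose and 19 fell in mRNA (median -0.91), and 4 rose and 19 fell in footprints. SSA2, a cytosolic Hsp70 with a near-identical copy, had 2184, 2235, 2021 and 1998 RPKM of mRNA in replete and 142, 187, 127.7 and 131 in starved cells. All 4 strains fell, with a change of -3.86 (SE 0.08, adjusted p = 1.5e-09), and the pair without CHX gave -3.93. YDJ1, its J-domain partner, and HSC82, an Hsp90, changed by -2.57 and -2.38 in mRNA. HSP30, a plasma membrane stress protein, changed by -2.91 with CHX and by 0.28 without, the largest difference in mRNA response among the genes of these lists, at -3.21 (SE 0.56, adjusted p = 0.011).

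Autophagy and vacuolar hydrolase genes rose. Of 24 autophagy genes tested (26 listed), 21 rose and 0 fell in mRNA (median 0.90) and in footprints (median 1.28), and 7 rose and 1 fell in TE. Their TE median was 0.31 with CHX and 0.30 without. ATG8, the ubiquitin-like protein of the autophagosome membrane, had 91.2, 87.2, 78.8 and 55.3 RPKM of mRNA in replete and 316, 302, 269 and 215 in starved cells, and 82.6, 80.8, 80.4 and 66.0 and then 646, 497, 458 and 418 RPKM of footprints. All 4 strains rose, by 1.83 (SE 0.06, adjusted p = 6.3e-09) in mRNA and 2.69 ± 0.10 in footprints. ATG41 and ATG1, a selective autophagy factor and the initiating kinase, rose by 3.64 and 2.71 in mRNA. All 8 vacuolar hydrolase genes rose in mRNA (median 0.88), among them AMS1 (1.63), LAP4 (1.48) and PRB1 (1.14).

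Of 13 genes of peroxisomal fatty acid oxidation tested (14 listed), 10 rose and 1 fell in mRNA (median 0.78), 11 rose and 1 fell in footprints (median 1.64), and 6 rose in TE (3 without BY4741 or without yJW1861). CRC1, the mitochondrial acylcarnitine carrier, had 4.78, 2.94, 4.45 and 1.80 RPKM of mRNA in replete and 64.9, 30.6, 36.2 and 39.6 in starved cells. Its footprints were 0.914, 0.344, 1.53 and 0.571 RPKM, 5 to 13 reads per replete library, and then 73.8, 19.2, 20.2 and 19.8. BY4741 was highest after starvation, and mRNA rose by 3.63 (SE 0.18, adjusted p = 5.9e-08).

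Respiratory chain and ATP synthase genes differed between the measures. Of 35 tested (36 listed), 16 rose and 11 fell in mRNA (median 0.10), 23 rose and 5 fell in footprints (median 0.44; 2 fell without yJW1863), and 13 rose and 0 fell in TE (32 rose with library sizes). Over all genes outside ribi and RP, 44.4% rose and 34.7% fell in mRNA, 42.1% and 32.7% in footprints, and 16.6% and 23.0% in TE. The TE median of the list was 0.22 with CHX and 0.02 without. COX7, a small subunit of cytochrome oxidase, had a TE change of 0.72 ± 0.11 with CHX and -0.72 without, a difference of 1.46 (SE 0.28, adjusted p = 0.014) that was not called without the strain block. Of 14 tricarboxylic acid cycle genes, 5 rose and 6 fell in mRNA, where 44.4% and 34.7% of all genes did, with ACO1, aconitase, at -1.04.

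Lipid and zinc genes mostly fell. Of 15 phospholipid and fatty acid genes, 1 rose and 13 fell in mRNA (median -1.08), with the fatty acid desaturase OLE1 at -2.70 and the synthase subunit FAS1 at -2.24. Of 23 ergosterol genes, 2 rose and 17 fell in mRNA (median -0.50), and 0 rose and 18 fell in TE (12 without yJW1862 or without yJW1863; 2 rose and 5 fell with library sizes), with ERG3 at -1.61 in mRNA and ERG13 at -1.19 in TE. Of 14 zinc-responsive genes, 2 rose and 12 fell in mRNA (median -1.77) and in footprints (median -2.27). ZRT1, the high-affinity zinc transporter, had 4838, 4478, 4902 and 5578 RPKM of mRNA in replete and 186, 218, 265 and 257 in starved cells, and 6585, 4451, 4904 and 5507 and then 50.8, 46.8, 47.1 and 92.0 RPKM of footprints. Its mRNA fall was among the largest, together with that of TAT1, at -4.43 (SE 0.11, adjusted p = 1.6e-09), and larger still without CHX (-5.80, a called difference). VEL1, of unknown function, changed by -4.32 in mRNA, and ZAP1, the zinc-sensing activator of the group, by -3.20 in footprints. Of 16 phosphate genes tested (22 listed), 4 rose and 9 fell in mRNA (median -0.21), with the acid phosphatase PHO3 lowest at -3.93. Of 21 iron uptake genes tested, 9 rose and 4 fell in mRNA, where 44.4% and 34.7% of all genes outside ribi and RP did. Of the 21, 7 fell without yJW1863, and 2 without yJW1861 or yJW1862. The reductase FRE1 changed by -2.87 with CHX and -0.97 without, a called difference.

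Cyclin and histone genes differed between mRNA and TE. Of 17 cyclins and regulators, 3 rose and 9 fell in mRNA (median -0.16), and 9 rose and 2 fell in TE (median 0.36 with CHX, 0.21 without). The S-phase cyclins CLB6 and CLB5 and the G1 cyclin CLN2 changed by -1.81, -0.93 and -1.32 in mRNA. Of 8 core histone genes tested (10 listed), 2 rose and 4 fell in mRNA, 5 rose in footprints and 4 rose in TE. HTB1, histone H2B, had 2909, 1434, 1589.9 and 2167 RPKM of mRNA in replete and 2803, 1333, 1318 and 2168 in starved cells, and 2485, 2091, 2239 and 2271 and then 6212, 3432, 3287 and 3408 RPKM of footprints. Its mRNA overlapped and was not called (-0.11 ± 0.06), whereas its TE rose by 0.87 (SE 0.16, adjusted p = 9.8e-04), against 0.41 without CHX. Non-unique positions were masked, so histone genes were counted only where they differ from their copies. Of 35 DNA replication and dNTP genes, 2 rose and 25 fell in mRNA, with RNR1, the large subunit of ribonucleotide reductase, at -2.49.

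**Figure D3:**
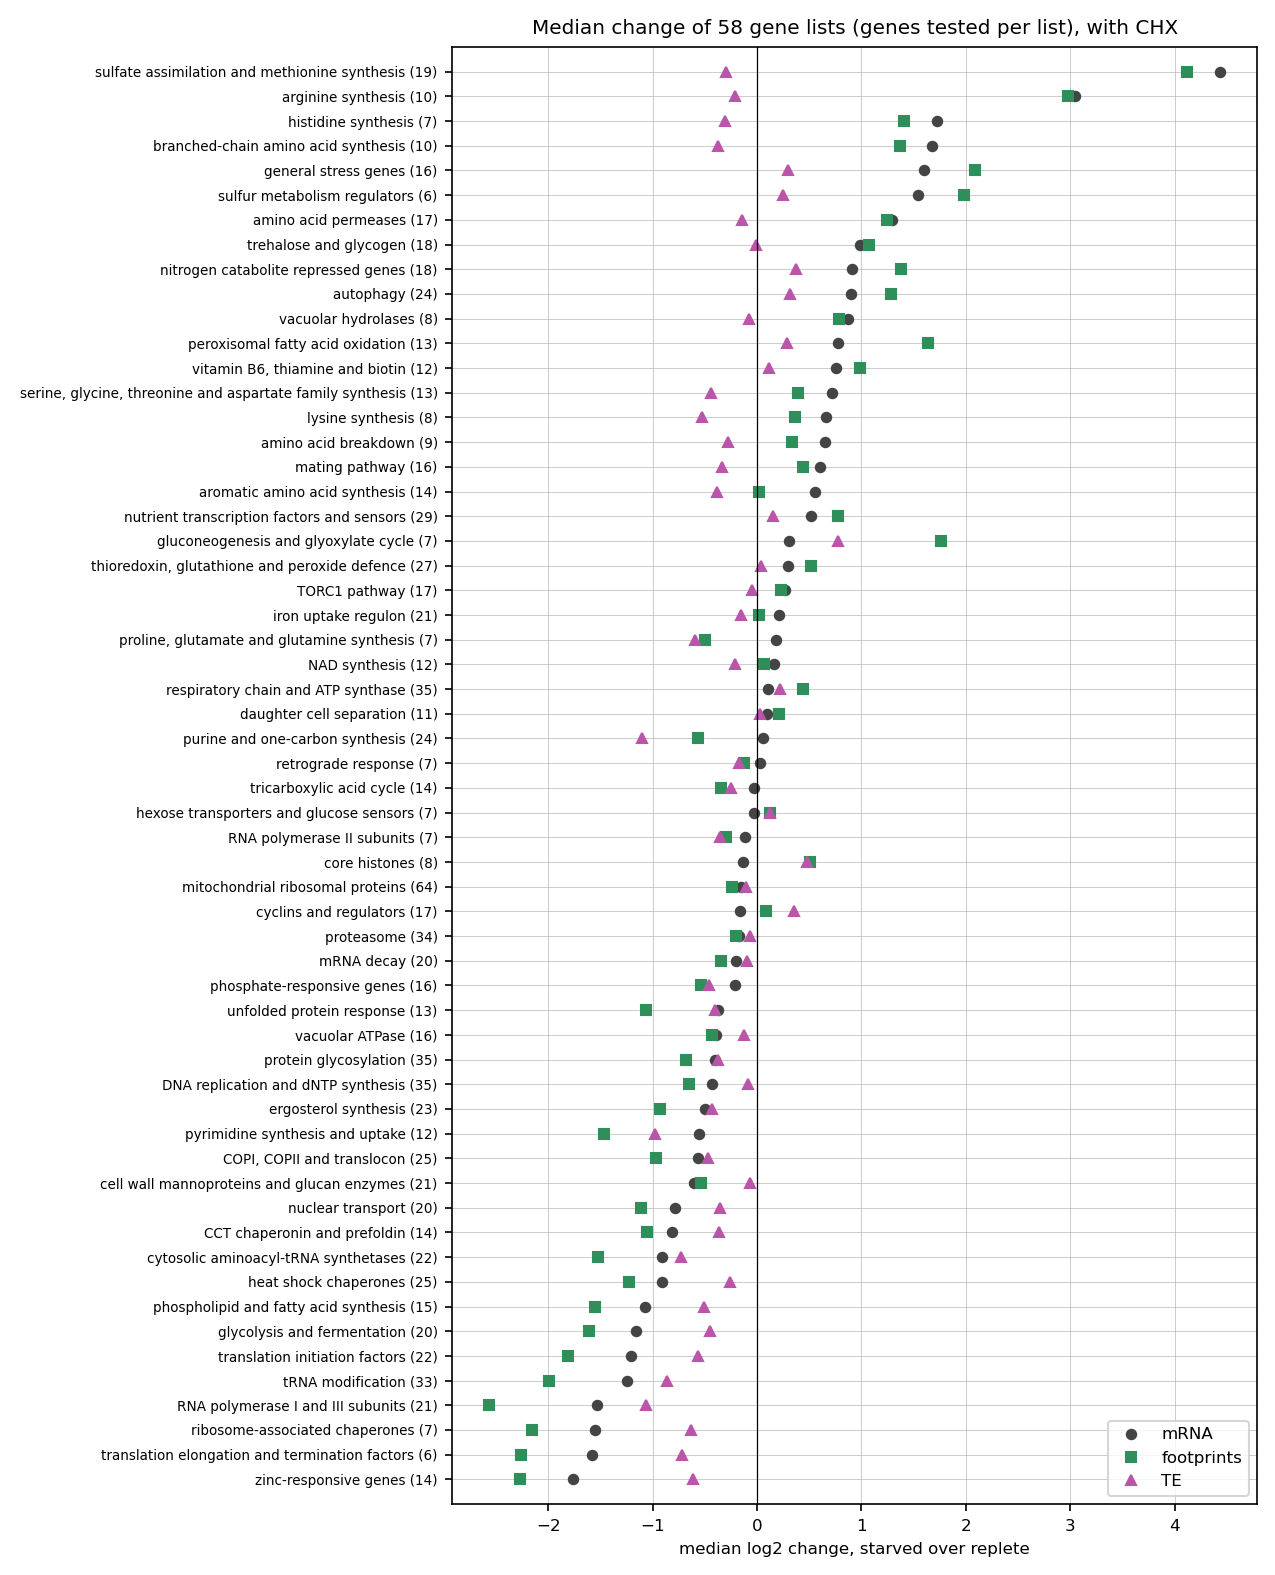
Median log2 change of the tested members of 58 gene lists (number tested in parentheses) in mRNA (black), footprints (green) and TE (magenta) with CHX. Sulfate assimilation and methionine synthesis stands highest at 4.44 in mRNA, and in 25 of 29 lists whose mRNA median is below 0 the footprint median lies lower still.

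SYG1 and ATF1 were among the 270 genes that rose in mRNA and fell in TE. SYG1, a membrane protein with an SPX domain, had 154, 122, 125 and 139 RPKM of mRNA in replete and 667, 237, 278 and 485 in starved cells, and 61.5, 39.9, 38.2 and 43.9 and then 1.75, 1.61, 1.38 and 1.95 RPKM of footprints, or 14 to 44 reads per starved library. Every strain rose in mRNA and fell in footprints. TE changed by -6.25 (SE 0.26, adjusted p = 4.5e-08), the largest fall, and by -5.73 in the pair without CHX. ATF1, an alcohol acetyltransferase, rose by 0.62 ± 0.09 in mRNA and changed by -3.53 (SE 0.21, adjusted p = 2.3e-07) in TE, with 4 to 30 footprint reads per starved library, and by -2.55 without CHX. HAC1, the transcription factor of the unfolded protein response, had 816, 1274, 1628 and 781 RPKM of mRNA in replete and 1098, 2275, 2134 and 1132 in starved cells. Only a short stretch of it was counted, with 22 to 50 footprint reads per replete library, 5 in starved BY4741 and 0 in the other 3 starved libraries, so its fitted TE change of -4.39 ± 0.63 is not a bound. The pair without CHX had 2 and 3 footprint reads. CCW12 gave the promoter of the NOP2 copy put back in yJW1861, and ADH1 the untranslated regions around EGFP in yJW1863. These genes changed by -0.33 and -0.51 in mRNA, and their TE was not called.

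Among the genes with the largest TE rises, DAL5 (5.09 and 4.03), GCN4 (3.90 and 3.73), GTO1 (2.60 and 2.79) and BSC5 (2.28 and 4.06) were above 2 both with and without CHX. MSH5, a meiotic mismatch repair homolog, had 3.10 with CHX and 0.45 without, FKS3, a glucan synthase homolog, 2.81 and 0.08, and the drug exporters QDR1 and PDR10 2.36 and -0.06, and 2.33 and 0.79. None of these 4 differences was called, with adjusted p-values of 0.322, 0.216, 0.092 and 0.712 in edgeR. MSH5 and FKS3 had 7 to 28 and 7 to 17 footprint reads per replete library.

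TE changes ran with gene length in the samples with CHX. Ordered by unmasked coding length into 5 groups of about 957 genes, with median lengths of 470, 864, 1242, 1750 and 2829 bases, the share of genes that fell in TE was 7.2%, 19.1%, 23.6%, 28.4% and 36.5%, and the share that rose was 27.3%, 18.1%, 15.7%, 13.5% and 8.6%. The median TE change was 0.20 in the shortest group and -0.17 in the longest with CHX, and 0.01 and 0.01 without. In BY4741 with CHX these medians were 0.11 and -0.05, nearer to 0 than in the other 3 strains. Both BY4741 pairs were counted over the same region, and the other strains over another one. Across 4786 genes, which are not independent, Spearman's rho between length and TE change was -0.28 with CHX and 0.01 without, as a description. Genes with much mRNA in replete cells also fell more in TE, with rho of -0.35 with CHX and -0.21 without. These values share the same libraries, and longer genes have more reads at a given level. The part of length and level in the list results was not tested.

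**Figure D4:**
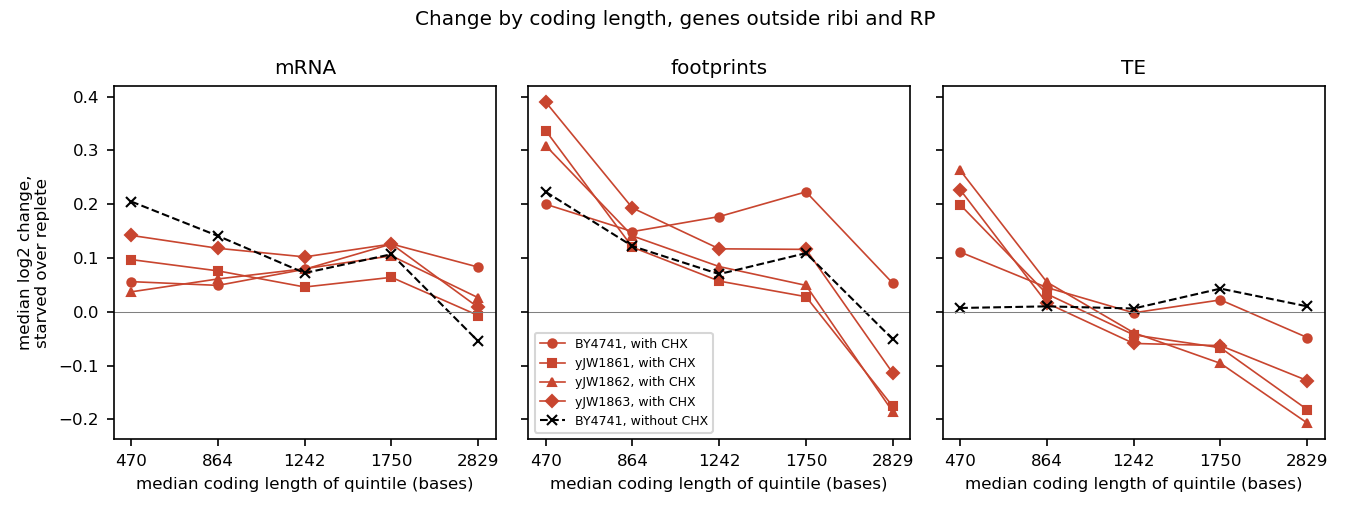
Median log2 change in mRNA, footprints and TE (y axis) of genes outside ribi and RP in 5 groups of unmasked coding length, evenly spaced and labelled with their median in bases (x axis). Red lines are the 4 strains with CHX and the black dashed line BY4741 without; in TE the red lines run from between 0.11 and 0.26 in the shortest group to between -0.21 and -0.05 in the longest, and the black line stays between 0.01 and 0.04.

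The response with CHX was tested against that of the BY4741 pair without CHX, which was assumed to vary as the 4 pairs with CHX do. Only BY4741 among these 4 matched it in strain and counted region. Strain, counted region and the way of collecting cells were therefore also part of the contrast. Of 4769 genes outside ribi and RP, 158 (3.31%) had a higher and 43 (0.902%) a lower mRNA response with CHX. Footprint responses were higher for 7 (0.147%) and lower for 7 (0.147%), and TE responses were higher for 10 (0.210%) and lower for 61 (1.28%). Without the strain block 15 mRNA, 0 footprint (192 of all genes at an unadjusted p under 0.05) and 10 TE differences were called in edgeR, the TE differences all lower. These counts depend on single strains: TE differences numbered 34 in all without yJW1862, 46 without yJW1863 and 102 without BY4741, mRNA differences 90 without yJW1862, and footprint differences 0 without yJW1861, 2 without yJW1862 and 96 without BY4741. Of the 58 lists, tRNA modification had 6 of 33 members among the TE differences, polymerase I and III 5 of 21, and purine and one-carbon synthesis 5 of 24. In mRNA, 9 of 18 trehalose and glycogen genes and 7 of 16 general stress genes differed. The TE of RRB1, a chaperone of a ribosomal protein, differed by -3.75 (SE 0.36, adjusted p = 5.5e-04), and that of FOX2, a peroxisomal oxidation enzyme, by 1.71 (SE 0.33, adjusted p = 0.017) in the other direction. In the pair without CHX, the amino acid synthesis genes also took a larger share: they went from 3.93% to 18.6% of mRNA reads and from 4.65% to 19.8% of footprints there. Of the 44 lists with a median TE change below 0 with CHX, 41 had a median nearer to 0 without it. Most lists with a median above 0 with CHX were nearer to 0 without it as well. The lists were split by their values with CHX, which by itself favours medians nearer to 0 in another pair, and this was not tested.

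**Figure D5:**
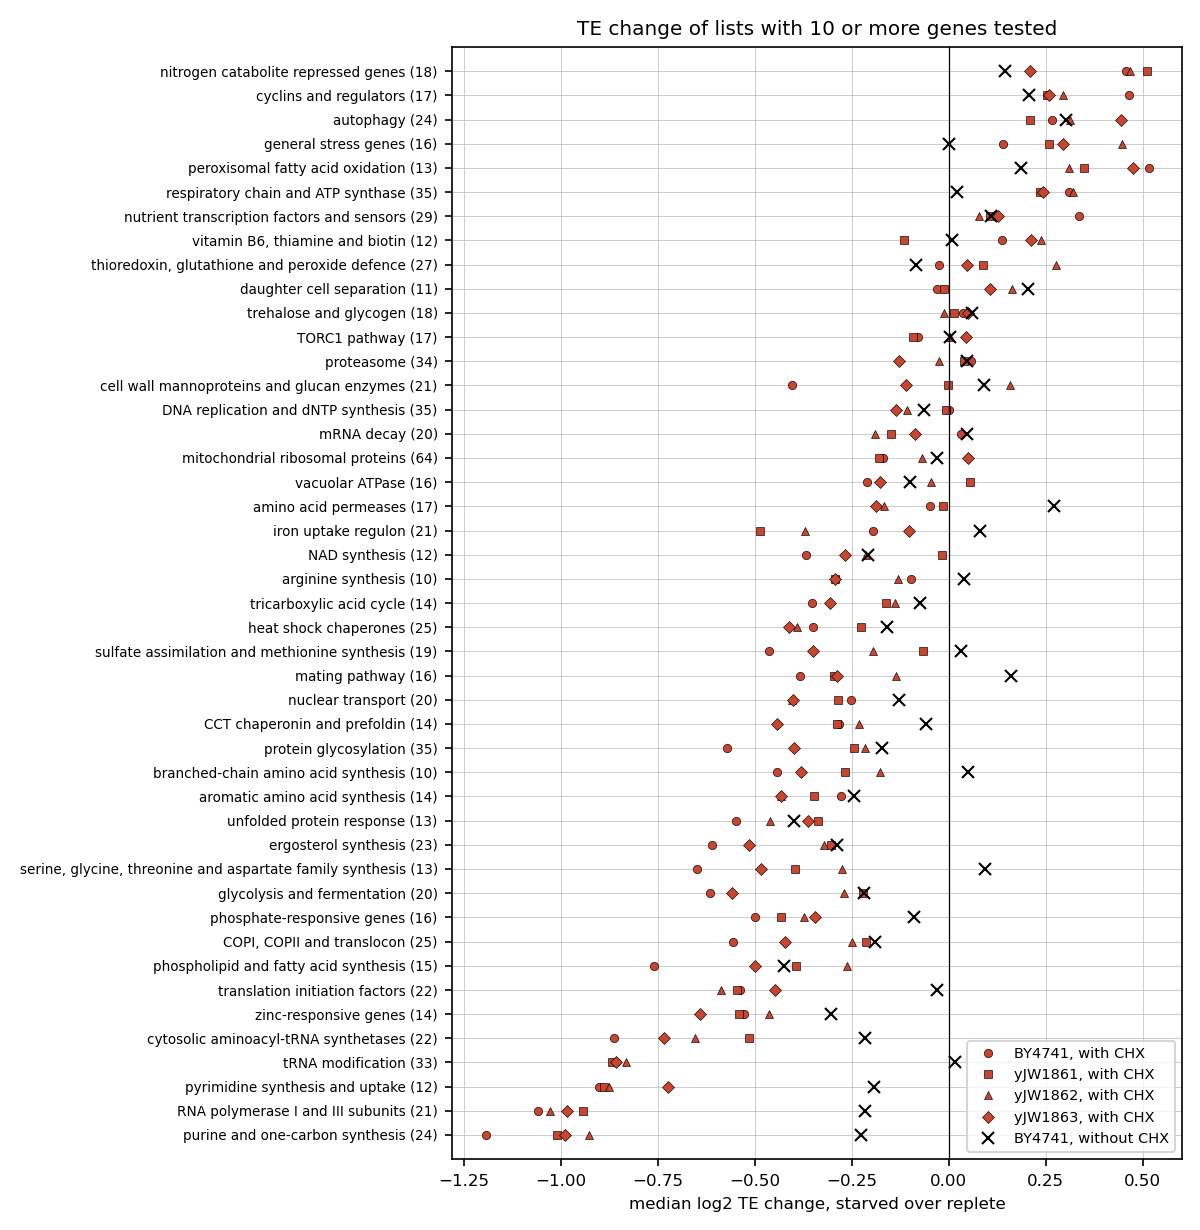
Median log2 TE change of gene lists with at least 10 genes tested (number in parentheses). Red symbols are the 4 strains with CHX and black crosses the BY4741 pair without; for purine and one-carbon synthesis, at the bottom, the strains lie between -1.19 and -0.93 and the cross at -0.23, and for autophagy the cross at 0.30 lies among the strains.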

How the data were processed

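The authors counted footprint and mRNA reads per coding sequence. Per the labels, adapters were clipped, rRNA and tRNA reads removed with Bowtie 1.1.2, the rest aligned with TopHat2 2.1.1 to sacCer3, and reads counted outside masked, non-unique positions. The deposited tables hold raw counts and RPKM. The counts were tested, and RPKM served to recover unmasked length and in 1 alternative. Footprints came from RNase I digestion and monosome pellets, and mRNA libraries from rRNA-depleted total RNA with a stranded kit, so antisense reads were kept apart.

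Genes with a mean of at least 7 on the log2 scale in mRNA counts and 1 footprint count over 8 samples were tested, leaving out open reading frames marked dubious. edgeR 4.0.16 (R 4.3.3) fitted quasi-likelihood models with TMM factors and strain as the replicate block. Both samples of a strain came from 1 culture, per the methods. Same-strain deviations correlated at 0.585 to 0.823 in mRNA and 0.477 to 0.764 in footprints. The replete footprints of yJW1862 (0.477) matched the starved sample of another strain better. The highest values were those of BY4741, which was counted over another region. TE was the interaction of starvation with library type. Adjusted p under 0.05 was called.

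The 58 gene lists and the members shown by sample were chosen with earlier results of these data known. RefSeq synonyms matched 9 of their 1094 names and the deposited symbols the other 1085; 1021 were tested. Named outside the lists are the 10 largest called changes in each direction and measure that had the same sign in all strains and at least 32 reads in every library of the higher group; ADE17 and GAP1 were added after their values were seen. Alternatives were DESeq2 1.42.0, RLE factors, TMM factors from genes outside ribi and RP, library sizes alone, other count minimums, limma 3.58.1 on RPKM ratios, the harvested sample as block, no block and each strain left out. The fits were also run on simulated counts with a fixed dispersion and the same response in every strain. These settings differ from the data, so that run does not test the normalization or the strain block. Sequences and motifs were not analysed here.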

Additional observations from a re-analysis of the deposited data

Results flagged for a closer look

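Of 144 groups of 4 samples examined (replete or starved levels of 26 genes and shares of 10 gene groups), 22 had a sample far from the other 3, where chance gives about 1 in 20, and 11 of the 22 were BY4741, whose libraries were counted over another region of each gene (108 bases left out, and 33 in the other strains). BY4741 was highest in starved footprints of MET6 (16356 RPKM, others 9510 to 10664), HAC1 (35.5, others 0), CRC1 (73.8, others 19.2 to 20.2) and HTB1 (6212, others 3287 to 3432). In replete footprints it was highest for GAP1 (163, others 56.6 to 66.2), TDH2 (19645, others 8919 to 10466) and SSA2 (9408, others 4930 to 5038) and lowest for ADE17 (446, others 610 to 642). The BY4741 share of sulfate assimilation and methionine genes was low in replete mRNA (0.965%, others 1.11% to 1.12%) and high in starved footprints (9.75%, others 7.59% to 7.79%), and its share of glycolysis genes was high in replete footprints (21.3%, others 14.1% to 14.5%).

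The strain yJW1863 was highest in replete mRNA of ARG3 (64.5 RPKM, others 40.0 to 41.2), LYS4 (119, others 96.0 to 99.0), MET6 (2676, others 2252 to 2304), URA7 (322, others 238 to 242) and RPA190 (314, others 238 to 244), in replete footprints of URA7 (297, others 198 to 212), in starved footprints of ZRT1 (92.0, others 46.8 to 50.8), and in the replete mRNA share of RP genes (8.65%, others 7.68% to 7.83%). It was lowest in starved footprints of GAP1 (634, others 1282 to 1338) and in replete footprints of ATG8 (66.0, others 80.4 to 82.6). In yJW1862 the starved mRNA of URA7 was lowest (24.7, others 32.7 to 33.1).

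For 5 of the genes described by sample, the response with CHX differed from that without, tested as an interaction in edgeR with p-values adjusted over all genes. As log2 differences with minus without CHX, mRNA responses differed by 0.99 for IMD4, 1.86 for URA7, 1.36 for ZRT1 and -0.85 for HAC1. The footprint response of URA7 differed by -2.73. TE responses differed by -1.52 for IMD4, -4.57 for URA7, -2.05 for RPA190 and -2.49 for ZRT1. In each the pair without CHX was a single one, collected in another way. Without the strain block, the mRNA and TE differences of URA7 were called and the others were not.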

How the results depend on the processing

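Over all genes tested, the counts of genes called for starvation moved by less than 1.5 times under DESeq2, limma, the other scalings, other count minimums and the harvested sample as block. Their directions moved more with library sizes: TE calls went from 800 up and 1282 down to 2357 up and 559 down, and footprint calls from 2017 up and 1828 down to 2826 up and 1198 down. Leaving the strain block out gave 985 TE calls in place of 2082. Without 1 strain, TE calls ranged from 1412 to 2073. The counts of responses that differed with and without CHX were less firm. For mRNA, 280 became 42 without the block, and 151 to 306 without 1 strain. For TE, 135 became 31 without the block, and 80 to 191 without 1 strain. For footprints, 26 became 73 with DESeq2 and 0 without the block (192 at an unadjusted p under 0.05 in edgeR), and 0 without yJW1861 (468 at an unadjusted p under 0.05), 4 without yJW1862 and at most 137 without any strain. With library sizes only, the TE change of GDB1 became 0.31 and that of LAP4 0.32, and the footprint change of GCN2 became 0.16, each from below 0; no other change past the threshold turned its sign. Over the alternatives, values of named genes kept direction and side of the threshold in 5815 cases, lost the call in 124 and gained it in 74. The cause of these changes was not tested. Depth limits footprints most: the shallowest library held 3631611 reads.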

Other observations

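Protein folding and secretion genes fell in mRNA. All 14 genes of the CCT chaperonin and prefoldin fell (median -0.82), as did 23 of 25 COPI, COPII and translocon genes with 0 rising (median -0.57) and 28 of 35 protein glycosylation genes with 4 rising (median -0.40). CCT5, SEC63 (a translocon subunit) and SEC53 (phosphomannomutase) changed by -1.10, -1.11 and -1.64. Their TE fell on the TMM scale (8, 13 and 17 genes down; 5 in the first without yJW1863) but not with library sizes, where 3 rose and 4 fell, 4 rose and 4 fell, and 9 rose and 8 fell. Of 13 unfolded protein response genes 2 rose and 9 fell in mRNA, with the Hsp70 KAR2 at -2.06. Of 21 cell wall genes tested 2 rose and 18 fell, with GAS1 and FKS1, which build wall glucan, at -1.45 and -1.31. Of 20 nuclear transport genes 18 fell and 2 rose. Of 16 vacuolar ATPase genes 13 fell and 0 rose. Of 34 proteasome genes 21 fell and 4 rose in mRNA (median -0.18; 2 rose without yJW1861 or yJW1862), and of 64 mitochondrial ribosomal protein genes 33 fell and 5 rose (median -0.15). In footprints the proteasome (3 up, 16 down; 10 down without yJW1863) and mitochondrial ribosomal protein lists (4 up, 28 down; 7 up without BY4741) turned with library sizes, to 15 up and 2 down and to 19 up and 2 down.

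Among cofactor and defence genes, where 44.4% of all genes rose and 34.7% fell in mRNA, the lists differed. Of 12 genes of vitamin B6, thiamine and biotin tested (19 listed), 8 rose and 2 fell in mRNA. SNO1 and SNZ1, which make pyridoxal phosphate, rose by 5.34 and 4.40, and BIO3, of biotin synthesis, by 1.91 in mRNA and 1.31 in TE. Of 12 NAD synthesis genes 6 rose and 2 fell in mRNA and 5 rose and 5 fell in footprints (7 and 1 with library sizes), with BNA3 at 3.27 in mRNA. Of 27 thioredoxin, glutathione and peroxide genes tested 16 rose and 5 fell in mRNA (3 fell without yJW1862), with TSA2, a peroxiredoxin, at 2.58 and GSH1, the first enzyme of glutathione synthesis, at 2.24. In these MATa cells 14 of 16 mating pathway genes tested rose in mRNA with 0 falling (median 0.60), among them FUS1 (1.65) and BAR1 (1.24). Their TE had 2 up and 8 down on the TMM scale (5 down without yJW1861, yJW1862 or yJW1863), and 5 up and 2 down with library sizes. Of 20 mRNA decay genes 3 rose and 13 fell in mRNA, with the exonuclease XRN1 at -0.52, and of 9 amino acid breakdown genes tested 5 rose and 3 fell, where the glycine cleavage genes GCV1 and GCV2 rose by 3.43 and 3.41.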
